A study of Rattus norvegicus with 48 samples.

Results

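Liver and testis of vehicle-treated rats were compared through 12 of the 48 libraries of a series on myclobutanil, a triazole fungicide. The 12 are the libraries titled vehicle, 6 of liver and 6 of testis, with the title numbers 2403 to 2408 in each tissue. They came from adult male Crl:CD (SD) Sprague-Dawley rats, aged 8 to 10 weeks at the start of the study. The rats were given corn oil at 4 ml/kg by gavage every day for 14 days, at a myclobutanil dose of 0 mg/kg, so both tissues carry the same handling and oil load and neither is from an unhandled animal. Testis libraries 2407 and 2408 are labelled vehicle in the title and by dose, while another of their labels names myclobutanil, and they were kept as vehicle. The other 36 libraries are from rats given 30, 150 or 400 mg/kg of the fungicide and are used here for a repeat of the comparison. Whole organs were extracted, so each value is a mixture over the organ's cells, and fewer cells of a type and less RNA per cell cannot be told apart. The labels do not say that a title number is an animal or that libraries are of separate animals, so p-values measure the spread between these libraries.

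Liver is built mostly of hepatocytes, which secrete the bulk of plasma proteins and carry out much of the body's intermediary metabolism, and its messenger RNA is known to be dominated by a small number of secretory and metabolic transcripts. Testis holds germ cells from stem cells through meiosis to maturing spermatids, supported by Sertoli, Leydig and peritubular cells, and is known for transcribing an unusually wide part of the genome, much of it in meiotic and post-meiotic cells. The deposited files identify genes by Ensembl ID and pair no ID with a name, so the marker genes of these cell types could not be checked, and genes are described by their abundance and their pattern between the tissues.

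Reads assigned to genes numbered 31.8 to 49.1 M per liver library and 32.0 to 45.5 M per testis library. Mean depth was 37.3 ± 6.04 M in liver and 35.1 ± 5.14 M in testis (SD, n = 6), with overlapping groups (exact permutation p = 0.478), though liver was the deeper in 5 of the 6 title numbers. Library 2408 was the deepest in both tissues. Levels are given as CPM, gene counts scaled to 1 M gene reads in each library. Over 14706 genes with a mean of at least 1 CPM, pairs of liver libraries had a correlation of log2 CPM of 0.991 to 0.993, pairs of testis libraries one of 0.991 to 0.992, and pairs of a liver and a testis library one of 0.00688 to 0.027. The value between tissues depends on the genes kept. Over the 9533 genes with at least 1 CPM in all 12 libraries, the log2 mean CPM of liver and of testis correlated at 0.269. These correlations are across genes, which are not independent replicates, and are given as a description. Every liver library was thus far closer to the other liver libraries than to any testis library, which is what the labels call for.

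Liver messenger RNA was concentrated in a few genes and testis messenger RNA was spread over many. The single most abundant liver gene took 16.3% ± 1.15 of all gene reads and the single most abundant testis gene 0.873% ± 0.0186 (SD, n = 6), 18.7 times less. In liver this share was 14.8% in the lowest library, 16.4% at the median and 17.5% in the highest. In testis it was 0.855% in the lowest library, 0.87% at the median and 0.907% in the highest. One and the same gene led all 6 liver libraries, and another led all 6 testis libraries.

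The 10 most abundant genes held 29.8% ± 1.49 of liver reads against 5.04% ± 0.228 of testis reads (SD, n = 6). The 100 most abundant held 54.0% ± 1.26 against 20% ± 0.369, and the 1000 most abundant 78.8% ± 0.65 against 56.1% ± 0.405. As a ratio, liver to testis, the share fell from 18.7 for the first gene to 5.91, 2.7 and 1.4 for the first 10, 100 and 1000. Both cumulative shares end at 100%, so their ratio must approach 1 down the ranks. In percentage points the gap widened from 15.4 for the first gene to 24.8 and 34.0 for the first 10 and 100. For the first 1000 it was 22.7. Read from the other side, 69.8 ± 8.35 genes accounted for 50% of liver reads and 752 ± 15 genes for 50% of testis reads. For 90% of reads, 2851 ± 84.9 liver genes and 4904 ± 54.8 testis genes were needed, and for 99%, 8270 ± 61.8 and 10931 ± 52.2.

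These shares can be condensed into the effective number of genes, the exponential of the Shannon entropy, which is the number of equally abundant genes that would give the same evenness. It was 605 ± 57.7 in liver and 3829 ± 62.4 in testis (SD, n = 6), 6.33 times higher in testis. The liver libraries ran from 546 through a median of 588 to 675, and the testis libraries from 3717 through 3838 to 3895. The 2 tissues did not overlap on any of these measures. For each of them the exact 2-sided permutation p was 0.00216, the smallest that 6 against 6 libraries allow, and 0.00228 after Benjamini-Hochberg adjustment over 19 measures. That test takes the libraries as unpaired. Taken in pairs by title number, each measure gave an exact sign-flip p of 0.03125, the smallest that 6 pairs allow.

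**Figure D1:**
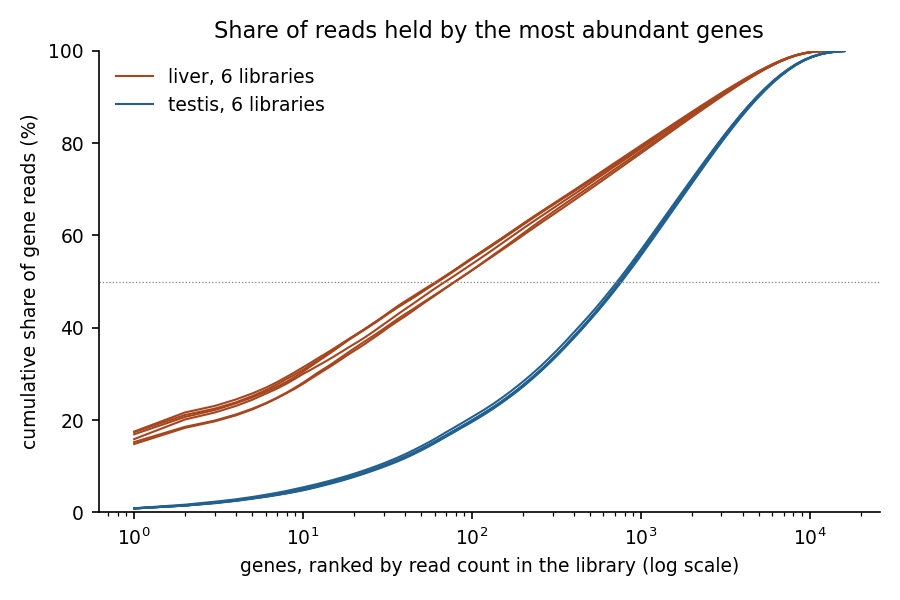
Cumulative share of gene reads (%) against gene rank on a log scale, 1 line for each of the 6 vehicle liver and 6 vehicle testis libraries. The liver lines start between 14.8% and 17.5% and pass 50% at 62 to 80 genes, and the testis lines start under 1% and pass 50% at 725 to 769 genes.

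The plot of cumulative share by rank shows that the liver lines gained more over the first 100 ranks than over all later ones, and the testis lines more between ranks 100 and 1000 than over the first 100. A read share also grows with transcript length, and no gene lengths for these IDs were used, so the shares are of reads and not of transcript molecules. The concentration in liver did not rest on its leading genes alone. With the 10 most abundant genes of each tissue removed, 20 genes in all, the next 10 held 10.2% ± 0.64 of the remaining liver reads and 3.05% ± 0.0431 of the remaining testis reads (SD, n = 6). The effective number of genes was then 1916 ± 37.8 in liver and 4272 ± 49 in testis, so the difference shrank but the libraries of the 2 tissues still did not overlap (exact permutation p = 0.00216).

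The levels that carry the reads differed accordingly. In liver, 111 genes had a mean of 1000 CPM or more and held 55.0% ± 1.23 of the reads (SD, n = 6). In testis 90 genes reached that level and held 19.0% ± 0.356. The testis reads lay instead in the band below, where 2138 genes at 100 to 1000 CPM held 55.1% ± 0.282, against 974 genes with 24.6% ± 0.648 in liver. Genes at 10 to 100 CPM were about as numerous in both tissues, 5746 in liver and 6459 in testis, with 18.2% ± 0.587 and 23.3% ± 0.279 of reads. Genes at 1 to 10 CPM made up 2.02% ± 0.0642 and 2.41% ± 0.0543.

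More genes were detected in testis at every threshold. At least 1 read was counted for 16404 ± 243 genes in liver and 20770 ± 123 in testis (SD, n = 6), and at least 10 reads for 12924 ± 223 and 16808 ± 202. At least 1 CPM was reached by 11283 ± 61.6 genes in liver and 14412 ± 41.2 in testis. The groups did not overlap on these counts either (exact permutation p = 0.00216, adjusted 0.00228). Because the number of genes seen grows with depth, the expected number with at least 1 read was also computed at the depth of the shallowest library, 31.8 M gene reads, by exact rarefaction. It was 16218 ± 91.5 in liver and 20659 ± 65.7 in testis, a ratio of 1.27. Within each title number, testis exceeded liver by 4259 to 4645 genes.

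**Figure D2:**
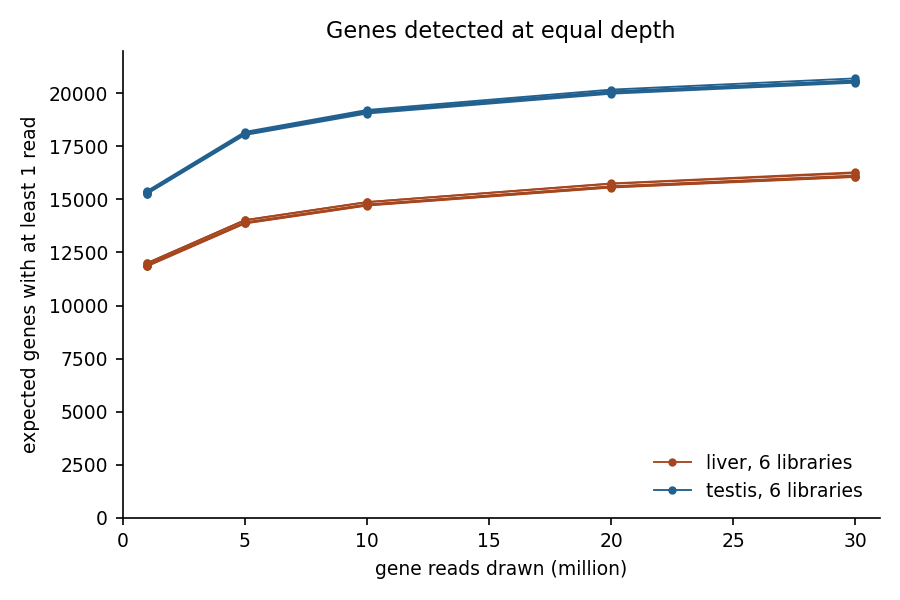
Expected number of genes with at least 1 read against the number of gene reads drawn (M), 1 line per library, computed exactly at 1, 5, 10, 20 and 30 M reads. At 1 M reads the testis libraries lie at 15267 to 15394 genes, close to what the liver libraries reach at 20 M reads, 15557 to 15749.

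The rarefaction curves separate the tissues at every depth drawn. At 1 M reads 11919 ± 65 genes were expected in liver and 15324 ± 48.1 in testis (SD, n = 6), at 10 M 14779 ± 72.7 and 19124 ± 55.5, and at 30 M 16145 ± 90.4 and 20585 ± 65.1. Neither curve was flat at 30 M: from 20 to 30 M reads the means grew from 15638 to 16145 genes in liver and from 20067 to 20585 in testis. A single library therefore does not exhaust the genes with a read in either tissue.

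Over the 6 libraries of a tissue together, 18770 of the 32545 annotated IDs had a read in liver and 22913 in testis. Of these, 18086 had a read in both tissues, 684 in liver alone and 4827 in testis alone, and 8948 had none in the 12 libraries. Genes found in each library of one tissue and in no library of the other numbered 118 for liver and 2785 for testis. Genes with a read in exactly 1 of the 6 libraries numbered 1385 in liver and 1191 in testis, so the excess in testis was not made of genes seen in a single library.

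Reads that the authors' counting placed in no gene also differed between the tissues. They made up 41.5% ± 1.03 of all reads in liver and 35.7% ± 0.532 in testis (SD, n = 6; exact permutation p = 0.00216, adjusted 0.00228). Reads without a unique alignment were 25.9% ± 1.49 in liver and 16.9% ± 0.59 in testis. Aligned reads outside annotated genes went the other way, with 5.27% ± 0.248 in liver and 11.1% ± 0.106 in testis, 2.11 times more. Reads not aligned were 6.92% ± 0.451 in liver and 4.1% ± 0.298 in testis. Genes with near-identical copies can lose their reads to the rows of no gene, so their levels are measured with less certainty in both tissues. As a share of all reads in the file, the 10 most abundant genes held 17.4% ± 0.966 in liver and 3.24% ± 0.147 in testis.

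The comparison of single genes asks which of them differ between the organs in rats that received no fungicide. Of 16924 genes with enough reads for the test, 15961, or 94.3%, differed at an adjusted p under 0.05 (edgeR quasi-likelihood test, Benjamini-Hochberg adjustment). Of these, 6795 were higher in liver, 40.2% of the genes tested, and 9166 were higher in testis, 54.2%. With so high a share, a call alone says little of a gene, and the size of the difference is more telling. The median absolute log2 fold change over the tested genes was 2.52.

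Large differences were more frequent towards testis. A called difference of at least 8-fold was found for 2251 genes higher in liver, 13.3% of those tested, and for 5214 higher in testis, 30.8%. At 64-fold the numbers were 689 and 3364. By the level in the higher tissue, 94 genes were at least 8-fold higher in liver and 590 in testis under 1 CPM, and 522 and 1820 at 1 to 10 CPM. At 10 to 100 CPM the numbers were 971 and 1591, and at 100 to 1000 CPM 560 and 1134, so testis led in each of these bands. Among the 199 genes that reached 1000 CPM in either tissue the order was the reverse, with 104 at least 8-fold higher in liver and 79 in testis. None of the 199 missed the call, while 413 of 7620 genes at 10 to 100 CPM did. The log2 fold changes of the 963 genes that were not called had a median size of 0.11, and 909 of them were under 0.5.

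Directions of small differences rest on how the tissues are scaled to each other. The trimmed-mean scaling (TMM) used in the test leaves genes of extreme ratio or level out when it sets a factor for each library. The factors were 0.764 to 0.826 in liver and 1.21 to 1.29 in testis. They raise all genes in liver and lower all genes in testis, relative to scaling by library size. Against TMM, scaling by library size alone moved the median log2 difference by -0.67, median-ratio scaling (RLE) by -0.13 and upper-quartile scaling by 0.28. By library size alone 5300 genes were called higher in liver and 10575 in testis, and 585 genes were called in the opposite direction. The excess of large differences towards testis held under each of these scalings, with 1697 to 2546 genes at least 8-fold higher in liver and 4970 to 5859 in testis.

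The genes with the largest fitted fold changes, at a mean of at least 10 CPM and with no overlap between tissues, are given by ID. ENSRNOG00000000053 had 10725 CPM in the lowest liver library, 12289 at the median and 13649 in the highest. In testis it had 4 reads, all in library 2407, at 0.122 CPM, and 0 reads in the other 5 libraries. Liver stood far above testis in every library, with a pooled ratio of 641000 (95% counting interval 250000 to 2350000). The log2 difference fitted by edgeR was 19.66 with an adjusted p of 4.62e-19. The SE derived from its F statistic, 0.259, is far narrower than the counting interval. It does not give the uncertainty of a ratio that rests on 4 testis reads. Without library 2407, 1 of the 2 testis libraries with conflicting labels, the gene had 0 reads in testis. Liver was then at least 721000-fold higher against 3 reads over the other 5 libraries. The fitted log2 difference was then 22.09, a value that depends on the prior count at 0 reads.

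ENSRNOG00000045799 ran from 4480 through a median of 4778 to 5882 CPM in liver and had 2 reads in testis, 1 each in libraries 2403 and 2407. EdgeR fitted a log2 difference of 19.15 with an adjusted p of 6.36e-20. Its derived SE of 0.203 likewise does not give the uncertainty from so few reads. The pooled ratio was 529000 (95% counting interval 147000 to 4370000). The ratio rests on those 2 reads and was 889000 without 2403 and 894000 without 2407. Such counts are under the 3 reads used as the limit for a count of 0, so these ratios are not comparable with limits of that kind. Both genes are thus among the main products of liver and at the limit of detection in testis.

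ENSRNOG00000006578 ran from 4872 through 5006 to 5122 CPM in testis and had 0 reads in all 6 liver libraries together. ENSRNOG00000009326 ran from 4797 through 4925 to 5085 CPM in testis and likewise had 0 reads in liver. Against the limit that a count of 0 allows, 3 reads over the pooled 224 M liver gene reads, they were at least 372000-fold and at least 367000-fold higher in testis (edgeR adjusted p = 1.98e-16 and 2.85e-16). The spread of both across testis libraries was small, with SDs of 101 and 106 CPM (n = 6). Intervals and limits cover counting error only, since the reads carry no molecular identifiers.

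The most abundant genes of the 2 tissues differed in their level in the other. The first liver gene, at 148206 to 175051 CPM, was still counted in every testis library, at 0.745 to 1.8 CPM with a median of 1.31, a ratio of means of 127000. The second, at 33045 to 42583 CPM, had 186 to 241 CPM in testis, and the third, at 13031 to 15025 CPM, had 1690 to 2160 CPM there, 7.39 times less. Those 2 and the gene of rank 10 were the liver leaders with over 100 CPM in testis, and the remaining 7 were under 3 CPM there.

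Of the 10 leading testis genes, 6 had 0 reads in the 6 liver libraries, among them the genes of rank 4 and 5, which are named by ID above. The first testis gene, at 8550 to 9069 CPM, had the highest liver level of the 10, with 10.6 to 13.5 CPM in liver, 722 times less. The second, at 6039 to 6459 CPM, had 2 reads in liver, and the third, at 5098 to 7719 CPM, had 1.

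**Figure D3:**
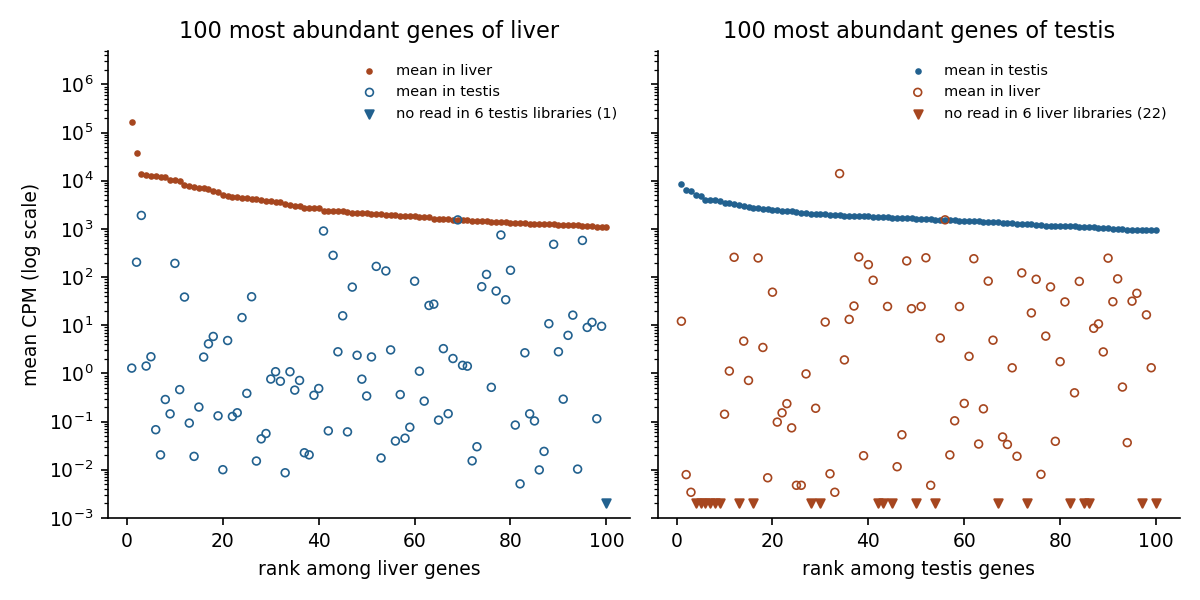
Mean CPM (log scale) of the 100 most abundant genes of each tissue against their rank, with filled points for the tissue itself, open circles for the other tissue and triangles for genes with no read in its 6 libraries. Of the testis leaders 22 have no read in liver, and of the liver leaders 1 has none in testis.

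Across the 100 most abundant genes the same contrast held. In testis 43 of them had a mean under 0.1 CPM in liver, and 25 of the 100 liver leaders were under 0.1 CPM in testis. At the other end, 50 of the liver leaders reached 1 CPM in testis and 46 of the testis leaders reached it in liver. The lists of 100 had 2 genes in common, and the lists of 1000 had 107. At matched level, 192 of 2138 testis genes at 100 to 1000 CPM, or 8.98%, had no read in liver, against 18 of 974 liver genes, or 1.85%, with none in testis. At 10 to 100 CPM the shares were 6.43% of 6459 and 0.174% of 5746. The pooled depths behind them were close, 224 M gene reads in liver and 211 M in testis.

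Genes were called tissue-restricted when they had at least 1 CPM in all 6 libraries of a tissue and under 0.1 CPM in all 6 of the other. By this rule 178 genes were restricted to liver and 2246 to testis, 12.6 times as many, and 9533 genes had at least 1 CPM in all 12 libraries. Since the rule uses the measured levels, these counts are a description and carry no test. Just inside the limit of 0.1 CPM, with a highest value in the other tissue of 0.05 to 0.1 CPM, lay 87 liver and 404 testis genes, and just outside, at 0.1 to 0.2 CPM, lay 110 and 409. The ratio of the counts moved with the limit: under 0.05 CPM there were 91 liver and 1842 testis genes, 20.2 times as many, and under 0.5 CPM 520 and 3190, 6.13 times as many. Testis had the larger class at each limit tried.

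The 178 liver-restricted genes were few but strongly expressed. Their median was 56.1 CPM with quartiles of 8.3 and 355, 78 of them exceeded 100 CPM and 19 exceeded 1000. Together they held 6.5% of reads in the lowest liver library, 6.95% at the median and 7.41% in the highest, and at most 0.000411% in a testis library. The top 10 of them made up 50% of that. None of the 10 most abundant liver genes was in the class, because each had at least 0.1 CPM in some testis library.

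The 2246 testis-restricted genes were more numerous and had a lower median level. Their median was 10.1 CPM with quartiles of 3.13 and 58.3, and 1121 of them were under 10 CPM. Still, 415 exceeded 100 CPM and 37 exceeded 1000, up to 6298. Together they held 22.2% of testis reads in the lowest library, 22.4% at the median and 23.1% in the highest, and at most 0.00175% in a liver library. The top 10 made up 19.5% of the class's reads in testis. A fixed top 10 weighs differently in classes of 2246 and 178 genes. This share therefore cannot tell which class was more even. No read in any liver library was found for 1328 of them, or 59.1%, against 38 of the 178 liver-restricted genes, or 21.3%, with none in testis. Of the 90 testis genes at 1000 CPM or more, 41.1% were restricted, and of the 111 liver genes, 17.1%.

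**Figure D4:**
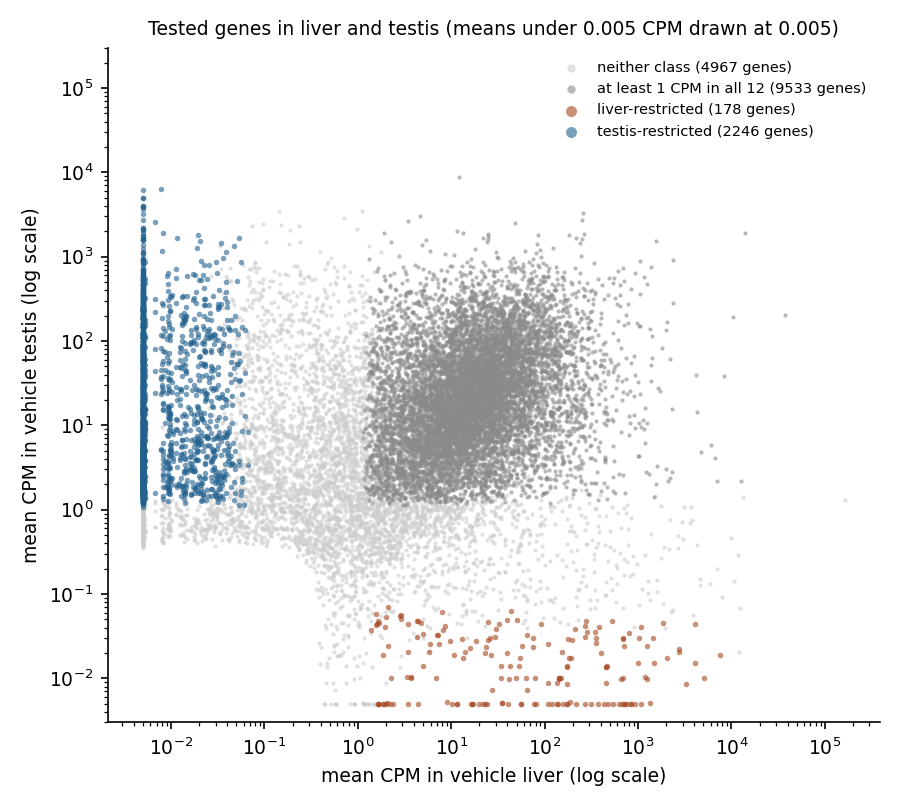
Mean CPM in vehicle liver against mean CPM in vehicle testis for the 16924 genes tested, both on log scales, with liver-restricted genes (178), testis-restricted genes (2246), genes of at least 1 CPM in all 12 libraries (9533) and the remaining genes in separate colours. Testis-restricted genes form a dense edge at the left over the whole range of testis levels, and liver-restricted genes a sparse edge at the bottom.

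A limit on the absolute level leaves out very abundant genes that are merely much lower in the other tissue, as the plot of both means shows for the highest liver levels. With a ratio of at least 100 between the means in its place, 476 genes belonged to liver and 2802 to testis, 5.89 times as many. The 476 liver genes then held 57.0% ± 0.997 of liver reads, and the 2802 testis genes 40.3% ± 0.398 of testis reads (SD, n = 6). Under both definitions testis had more restricted genes, whereas which tissue gave them the larger share of its reads turned with the definition, 6.96% ± 0.398 in liver and 22.6% ± 0.321 in testis under the first.

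The 9533 genes at 1 CPM or more in all 12 libraries made up 54.9% ± 0.801 of liver reads and 62.9% ± 0.334 of testis reads (SD, n = 6). Being present in both organs did not mean being at a like level. By library-size CPM 3487 of them, or 36.6%, had means within 2-fold, and 733 were at least 8-fold higher in liver and 1159 in testis. With TMM scaling 3529, or 37%, were within 2-fold, while 1090 were at least 8-fold higher in liver and 749 in testis. The median log2 difference, liver minus testis, was -0.38 by library size and 0.29 with TMM, so the tissue in which most genes present in both were higher turned with the scaling. Across these genes the ranks of the mean levels correlated at 0.292 (Spearman's rho, a description over genes).

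The same classes were drawn from the libraries of dosed rats, which share no library with the vehicle groups. At 30 mg/kg 176 genes were liver-restricted and 2287 testis-restricted, at 150 mg/kg 182 and 2350, and at 400 mg/kg 193 and 2262. Of the 178 liver-restricted genes of vehicle rats, 143, 144 and 142 were restricted at the 3 doses, or 80.3%, 80.9% and 79.8%, and they made up 81.2%, 79.1% and 73.6% of the lists there. Of the 2246 testis-restricted genes, 93.1%, 94% and 91.5% were, making up 91.5%, 89.9% and 90.9% of the lists. In all 4 dose groups 121 genes were liver-restricted and 1941 testis-restricted. The measures of complexity also came out close at 30 mg/kg, with an effective number of genes of 606 ± 58 in liver and 3904 ± 231 in testis (SD, n = 6).

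Gene by gene, the vehicle liver libraries varied more among themselves than the vehicle testis libraries. Over the genes present in both tissues, edgeR's common biological coefficient of variation was 0.13 in liver and 0.0829 in testis. The median coefficient of variation of CPM was 9.99% in liver and 7.17% in testis, and 6593 of the 9533 genes, or 69.2%, varied more in liver. Genes with a coefficient over 50% numbered 66 in liver and 21 in testis. These are descriptions over 6 libraries of each tissue, with no test.

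**Figure D5:**
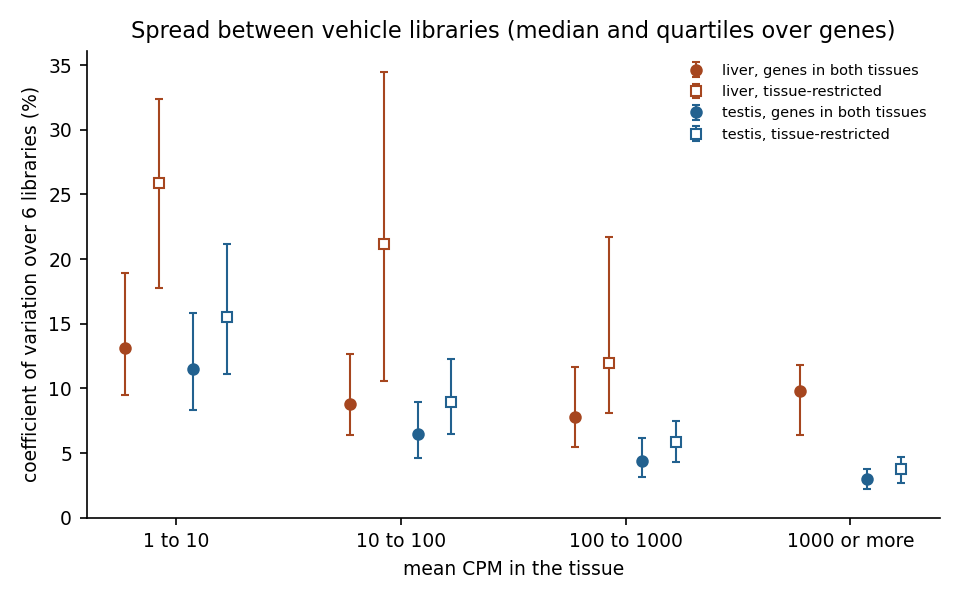
Coefficient of variation of CPM over the 6 vehicle libraries of a tissue (%), by mean CPM in that tissue, with points for the median over genes and bars for the quartiles. Filled points are genes of at least 1 CPM in all 12 libraries and open squares are tissue-restricted genes (the 19 liver-restricted genes of 1000 CPM or more are too few to plot). Within the same kind of gene, the liver points lie above the testis points at each level plotted for both. The open squares lie above the filled points of their tissue.

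As the plot of spread by level shows, liver also varied more within each band of level. Among genes present in both tissues, the median coefficient at 1 to 10 CPM was 13.1% in liver and 11.5% in testis, at 10 to 100 CPM 8.77% and 6.46%, and at 100 to 1000 CPM 7.81% and 4.39%. At 1000 CPM or more it was 9.8% in liver and 3.02% in testis, on 51 and 37 genes. Tissue-restricted genes varied more than shared genes of the same level. At 10 to 100 CPM the 52 liver-restricted genes had a median of 21.2% with quartiles of 10.6% and 34.5%, and the 710 testis-restricted genes a median of 8.94% with quartiles of 6.51% and 12.3%. Within a liver library the CPM of all other genes also moves with the share of the leading gene, which ran from 14.8% to 17.5%, and its part in the spread was not tested.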

How the data were processed

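Polyadenylated RNA was made into libraries with a stranded kit, per the labels' protocols. CASAVA 1.8, HISAT2 and HTSeq 0.6.1 are named in the submitters' processing notes. Not given in the sources used here: genome build, annotation release and strand setting. The authors deposited raw counts, whole numbers of reads for each Ensembl gene ID of the rat. The 5 rows of no gene entered neither library sizes nor tests. Of 32545 IDs, 0 matched the reference table of 47357 genes, so the gene lists, paralogue pairs and promoter sequences chosen for this comparison could not be used.

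CPM is scaled by library size, TMM in tests. Vehicle liver was tested against vehicle testis in the 12 vehicle libraries (R 4.3.3, edgeR 4.0.16; TMM factors, low-count filter by filterByExpr, robust quasi-likelihood fit, no block). Standard errors were derived from each log2 difference and its F statistic, and do not measure the uncertainty of a fold that rests on a few reads. Library measures were compared by exact permutation (SciPy 1.17.1), 2-sided, over 19 measures. Genes named by ID are the 2 with the largest fold change in each direction, called, with at least 10 CPM in the higher tissue and no overlap. Replicates differed by more than counting noise (chi-square per gene 29.3 to 60.8 in liver, 7.85 to 14.4 in testis). Alternatives included DESeq2 1.42.0 and limma-voom 3.58.1. Scripts were tested on simulated data. The comparison, its rules and its lists were chosen with earlier results of these data known.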

Additional observations from a re-analysis of the deposited data

Results flagged for a closer look

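Dixon's test for a library apart from the other 5 was made 46 times, for each measure and each gene given by ID in each tissue, and marked 8, where chance marks about 1 in 20. Depth accounts for 2 of them, since library 2408 had 49.1 M gene reads in liver and 45.5 M in testis. The same libraries had the most genes with at least 10 reads, 13347 in liver and 17211 in testis, and testis 2408 the most with at least 1 read, 21011; in the number of genes expected at equal depth neither library was marked. Testis 2408 also had the lowest share of reads of low mapping quality, 2.53%. In testis 2406 the 100 most abundant genes held 20.7% of reads, the highest of the group. ENSRNOG00000000053, a leading liver gene, was at 0.122 CPM in testis 2407 and had 0 reads in the other testis libraries.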

How the results depend on the processing

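Among 24 alternative fits, the number of genes that differed between the tissues ran from 12340 (tested against a 2-fold change) to 19091 (no filter); DESeq2 called 15922, limma-voom 15955 and a fit of all 48 libraries 17149. With a replicate block on the title number 15929 were called, and the sign-flip p of each complexity measure but depth was 0.03125, the smallest possible, and 0.0625 for depth; the block changed no call on the genes given by ID. Deviations of same-numbered libraries correlated at 0.0596 to 0.153, and those of libraries with different numbers at -0.0978 to 0.0497. All 6 libraries of each tissue thus correlated best with their own number. A limit of 0.1 was passed by 3 of the 6 same-numbered pairs, and the main tests were left without a block. Whether the numbers pair the samples is not settled by this limit. The difference in depth reversed to -0.146 M reads without liver 2408 (-0.146 to 4.29 without 1 library) and to -7.01 M without the leading genes, by construction. Liver- and testis-restricted genes numbered 91 and 1842 under a limit of 0.05 CPM, 520 and 3190 under 0.5 CPM, 476 and 2802 by ratio, and 228 and 1943 with TMM, from 5.89 to 20.2 times as many in testis; with at least 5 CPM there were 1305 testis-restricted and 6333 shared genes. Without 1 library the biological coefficient of variation was 0.123 to 0.133 in liver and 0.0804 to 0.0841 in testis, and the median coefficient 8.96% to 10.2% and 6.74% to 7.18%. Without testis 2407 and 2408, 16072 genes were called. Removal of mitochondrially encoded genes and the shares of gene lists were not run, for want of gene names. Levels under 3 reads in the pooled libraries, 0.0134 CPM in liver and 0.0142 CPM in testis, could not be resolved.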

Other observations

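Reads of liver genes were present at very low level in each testis library. There were 41 liver genes of at least 1000 CPM whose testis mean was under 0.0001 of the liver mean, and together they had 3.9 CPM in the lowest testis library and 5.96 CPM in the highest, 2407, on 125 to 227 reads. In the other direction, 44 testis genes of at least 1000 CPM had together 0.84 to 1.22 CPM in the liver libraries, on 29 to 60 reads. Both sets were chosen by a low ratio between the tissues, so low sums were built in. The 2 sums cannot be compared, since the liver set includes a gene at 162969 CPM and the testis set reaches 6298 CPM. The ratio differed widely from gene to gene: among the 10 most abundant liver genes, rank 5, at 12503 CPM in liver, had 461 reads in testis, and rank 7, at 12118 CPM, had 4. What these reads come from was not tested.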
